A study of Oryza sativa Japonica Group with 59 samples.

Results

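The genes expressed in the wild-type (WT) egg cell and in WT sperm of rice were compared, and each gene was followed into the WT zygote that these cells form. The members were the RNA-seq libraries labelled ZH11-Egg-1 to ZH11-Egg-3 and ZH11-Sperm-1 and ZH11-Sperm-2, which are 5 of the 59 samples of the series and 5 of its 27 RNA-seq samples. The 3 libraries of WT zygote served as a readout that did not enter the choice of genes. Every file lists counts for the same 55986 features, of which 55801 carry a LOC_Os identifier.

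The series was made to follow DNA methylation and gene expression in rice reproductive cells of WT plants and of mutants of the CHG methyltransferases CMT3a and CMT3b. All groups compared here came from Oryza sativa japonica variety Zhonghua11 (ZH11), from WT plants regenerated out of tissue culture, and carried no mutation or transgene. Sperm was released from mature anthers in sucrose solution, eggs were freed from the ovules of florets that had not been pollinated, and zygotes from florets collected about 6.5 h after pollination, which the labels give as 6 to 8 h after fertilization. Cells were picked with a micromanipulator and pooled, and their mRNA was amplified before sequencing. The number of plants behind each library was not stated, so the SDs and p-values below cover the spread of these libraries only. Mutant libraries (cmt3b sperm, egg and zygote, cmt3a egg, all from Cas9-free CRISPR plants) and WT meiocyte and microspore libraries were used only to look up the genes chosen in the WT gametes.

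In flowering plants the pollen grain delivers a pair of sperm cells, of which one fuses with the egg to form the zygote and the other with the central cell to form the endosperm. The sperm cell is small, has condensed chromatin and little cytoplasm, whereas the egg is a large cell that holds stores of RNA and ribosomes used by the early embryo. The first hours after fertilization are served by RNA that the egg carried in, together with RNA newly made from the zygotic genome.

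Total counts were 16151914 to 25610860 in the egg libraries, 17941236 and 18868484 in the sperm files, and 13924063 to 22392600 in the zygote libraries, so that 1 CPM (1 count per 1000000 counts on genes) stood for 13.9 to 25.6 counts. The 2 sperm files differed by less than sampling noise (chi-square per degree of freedom 0.24, against 1.37 to 6.73 in the 20 other replicate pairs of the series) and were counted as 1 sample, the mean of their counts. No p-value is therefore given for egg against sperm. Identifiers could be given a gene name or product only for the 753 genes that the study's own tables annotate and for 4 genes it names in its text, and the usual markers of egg and sperm are not among them, so the cell type labels could not be checked against defining markers. Of the genes that could be checked, BURP15 (LOC_Os09g30320), annotated as an anther-specific protein, was at 0 counts in all egg and zygote libraries and at 0.0544 CPM in sperm. It stood at 553 to 589 CPM in WT microspore. The Rubisco small subunit genes, read as somatic or plastid markers, were not absent from all groups. RbcS5 (LOC_Os12g19381) was at 3.92 to 4.18 CPM in egg, 0 in sperm and 3.38 to 6.03 CPM in zygote. The gene rbcS (LOC_Os12g17600) was at 0.371 to 0.674 CPM in egg, at most 0.0557 CPM in sperm and 4.24 to 6.23 CPM in zygote. The full list of 17 photosynthesis and Rubisco genes, described below, went the other way. Its summed level was 261 and 276 CPM in the sperm files, 166 to 169.8 CPM in egg and 74.0 to 80.7 CPM in zygote. The source of these reads was not tested.

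A gene was called found in a group at 1 CPM or more in every library, and at the floor at 3 counts or fewer in every library. By this rule 12766 genes (22.8% of all) were shared by egg and sperm, 4316 (7.71%) were found in egg and at the floor in sperm, and 2681 (4.79%) were found in sperm and at the floor in egg. A further 26854 genes (48.0%) were at the floor in both gametes, and 9369 (16.7%) lay between the limits in at least 1 of them. The shared genes held 80.3% to 80.5% of all counts in the egg libraries and 88.4% to 88.5% in the sperm files. The egg-only genes held at least 11.9% of the counts in each egg library, and the sperm-only genes 5.90% in sperm. Since the classes were made from these values, the shares describe the gametes and test nothing. Counting error alone allows a gene at 0 counts to stand at up to 0.186 CPM in the smallest egg library and 0.167 CPM in the smaller sperm file, so "only" means not detectable in these libraries at this depth. By the paper's account far more cells were pooled for sperm than for egg, and all mRNA was amplified. The part of cell number and of losses in amplification in the classes was not tested.

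**Figure D1:**
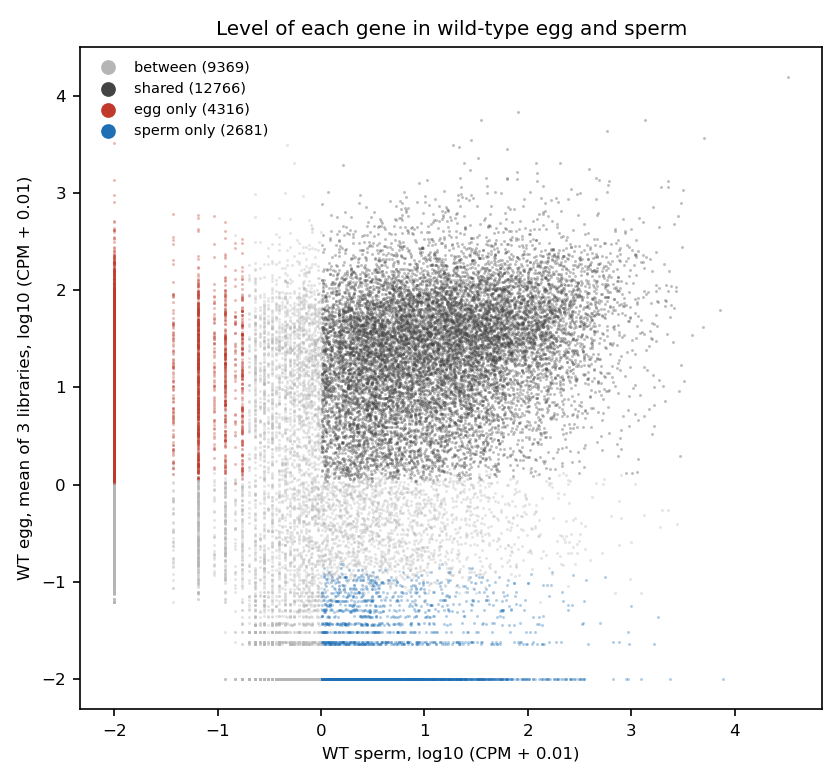
Mean level of each gene in the 3 WT egg libraries (vertical axis, log10 of CPM + 0.01) against its level in WT sperm (horizontal axis, same scale, 1 sample), coloured by class, with the number of genes in each class. The 12766 shared genes fill a broad cloud, and the 4316 egg-only and 2681 sperm-only genes lie along the axes where the other gamete has at most 3 counts.

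Egg-only genes reached higher levels than sperm-only genes. The median level per length was 6.88 FPKM for the egg-only genes in egg and 2.88 FPKM for the sperm-only genes in sperm, and the shared genes had a median of 14.1 FPKM in egg and 7.35 FPKM in sperm. Of the egg-only genes, 2269 (52.6%) had a mean of at least 10 CPM and 190 at least 100 CPM. Of the sperm-only genes, 612 (22.8%) reached 10 CPM and 89 reached 100 CPM. Near the limit itself, 450 egg-only genes (10.4%) and 902 sperm-only genes (33.6%) had a mean under 2 CPM, so the sperm-only class depended more on the limit. The median length of the gene models was 1720.5 bases for egg-only, 1322 for sperm-only and 1874 for shared genes. Egg-only genes made up 5.95% to 9.76% of the genes of each of the 12 chromosomes and sperm-only genes 3.91% to 5.21%. By the order of the identifiers, 27.5% of the egg-only genes had another egg-only gene right beside them, against 14.6% of all genes, and 19.5% of the sperm-only genes had a sperm-only neighbour, against 9.24% of all genes. Strand was not stated for the counting, so overlapping neighbours may share reads, and the part of this in the neighbour shares was not tested.

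Only 45 egg-only genes carried a symbol or a described product, and those with the highest CPM included genes of sugar metabolism and of ribosome production. SUS1 (LOC_Os03g28330), a sucrose synthase that splits sucrose into UDP-glucose and fructose, was at 579, 564 and 583 CPM in the egg libraries and 0.0815 CPM in sperm. Nucleolar protein 5A (LOC_Os03g22880), a factor of ribosomal RNA maturation, was at 309.8, 303 and 312 CPM in egg against 0.163 CPM in sperm. Per gene length, SUS1 stood at 163 ± 2.87 FPKM (SD, n = 3) and nucleolar protein 5A at 155 ± 2.44 FPKM in egg. By the class rule, neither had more than 3 counts in a sperm file.

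The cytoplasmic ribosomal proteins L24 (LOC_Os12g05430) and RPS23 (LOC_Os03g60400) belonged to the same class. L24 was at 266, 277 and 272 CPM in the egg libraries and 0.136 CPM in sperm, and RPS23 at 156, 159 and 155 CPM in egg and 0 in sperm. RPS23 comes from a table of genes raised in cmt3b sperm over WT sperm, made on libraries of this series. Its low sperm value is therefore not independent evidence. Ribosomal proteins have near-identical gene copies, and how reads were shared among copies was not stated, so values of single copies are uncertain. A glucan endo-1,3-beta-glucosidase (LOC_Os01g53750), an enzyme class that cuts callose-type cell wall glucans, was at 181, 171 and 178 CPM in egg and 0 in sperm.

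The next annotated egg-only genes stood at lower CPM. Roc3 (LOC_Os10g42490), a homeodomain transcription factor of the class with a START lipid-binding domain, was at 90.5, 92.2 and 94.1 CPM in egg and 0.0543 CPM in sperm. BBTI8 (LOC_Os01g03680), a protease inhibitor of the Bowman-Birk type, was at 73.3, 78.6 and 73.2 CPM in egg and 0 in sperm. ABCB14 (LOC_Os04g38570), an ABC transporter, was at 74.2, 77.3 and 67.9 CPM in egg and 0.0543 CPM in sperm. An RNA recognition motif protein (LOC_Os07g46760) was at 57.5, 55 and 58.3 CPM and a tRNA-dihydrouridine synthase (LOC_Os04g20990), which modifies uridines of tRNA, at 47.7, 43.5 and 46.9 CPM in the egg libraries, and sperm was at 0 and 0.0543 CPM. The egg-only genes with the highest CPM of all had no annotation: LOC_Os02g18690 was at 3239, 3467 and 3144 CPM in egg and LOC_Os12g10540 at 1365, 1428 and 1339 CPM, both with 0 counts in either sperm file.

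Among the 22 sperm-only genes with a symbol or product, the highest level per length was 123 FPKM and the next 18.8 FPKM. The highest was an inorganic H+ pyrophosphatase (LOC_Os01g23580), an enzyme class that pumps protons into vacuoles at the cost of pyrophosphate, with 335 CPM in sperm and 0.039, 0 and 0.0422 CPM in the egg libraries. A monooxygenase (LOC_Os07g30960) followed at 25.9 CPM in sperm and 0, 0 and 0 in egg, and CYP93G1 (LOC_Os04g01140), a flavone synthase of the cytochrome P450 family, at 16.8 CPM in sperm and 0.117, 0.186 and 0.0422 CPM in egg. A nodulin family gene (LOC_Os08g15450) was at 14.7 CPM and PAP3a (LOC_Os11g34710), a purple acid phosphatase, at 11.8 CPM in sperm, and both had 0 counts in every egg library.

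The next 5 annotated sperm-only genes by CPM were at 3.23 to 10.5 CPM in sperm, and the 12 others stood lower. They were a slowmo homolog (LOC_Os09g31190, 10.5 CPM), a pollen allergen (LOC_Os06g45210, 7.39 CPM), a PE-PGRS family protein (LOC_Os02g21500, 5.79 CPM), the F-box gene Fbox214 (LOC_Os04g36000, 3.8 CPM) and the beta-glucosidase 12bglu38 (LOC_Os12g23170, 3.23 CPM). By the class rule, no egg library held more than 3 counts of any of these 5. The sperm-only genes with the highest CPM had no annotation: LOC_Os04g46490 was at 7731 CPM and LOC_Os07g02170 at 2348 CPM in sperm, both with 0 counts in all egg and zygote libraries. Of the 100 sperm-only genes with the highest CPM, all at 91.3 CPM or more in sperm, 50 had 0 counts in every egg library. In the whole class 1638 of 2681 genes (61.1%) did, and the rule allowed at most 3 counts.

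**Figure D2:**
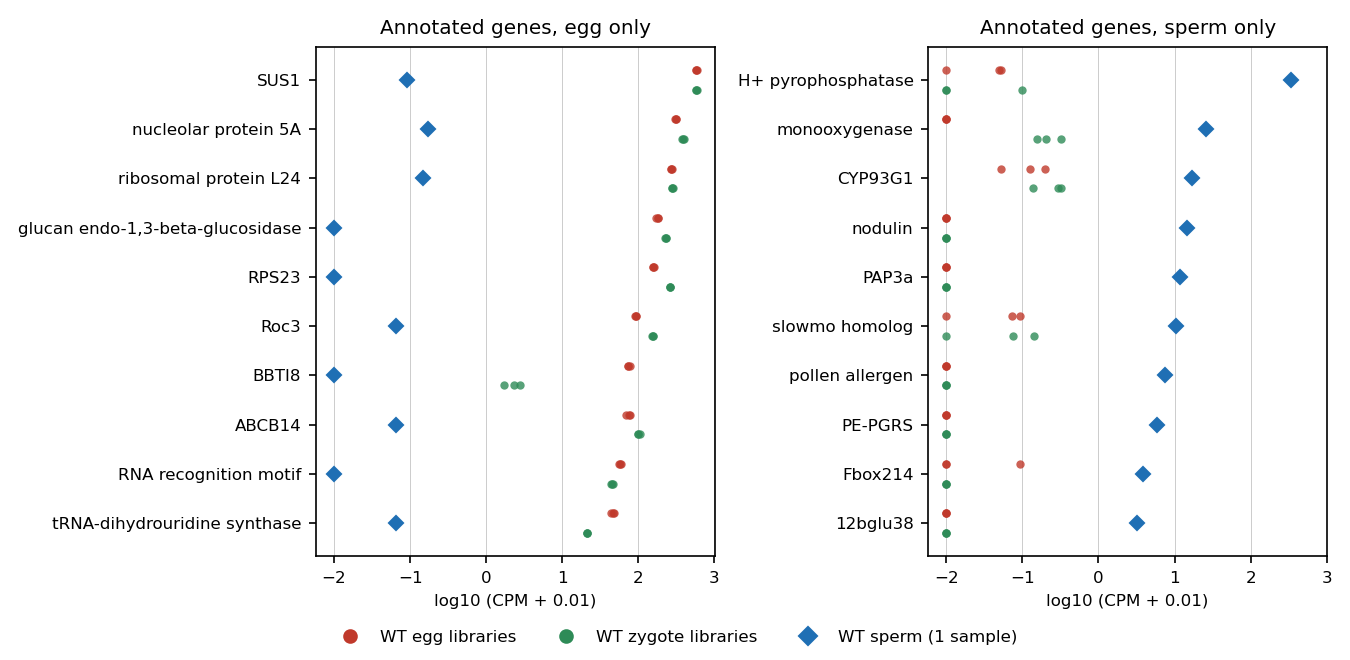
Level (log10 of CPM + 0.01) of the 10 annotated egg-only genes (left) and sperm-only genes (right) with the highest CPM in each of the 3 WT egg libraries (red), each of the 3 WT zygote libraries (green) and WT sperm (blue, 1 sample). For 9 of the 10 egg-only genes zygote lies beside egg, with BBTI8 as the exception, and for all 10 sperm-only genes zygote lies with egg below 1 CPM.

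Most shared genes stood at unlike levels in the 2 gametes, and about as many leaned towards egg as towards sperm. A log2 ratio of egg to sperm was taken for the 25587 genes that passed a filter on low counts, with TMM scaling and a prior count of 2, and a gene was counted as different where all 3 egg libraries were over 2-fold higher than sperm or all 3 over 2-fold lower. Among all of these genes 45.9% were higher in egg and 36.6% higher in sperm. Of the 12766 shared genes, which all passed the filter, 4568 (35.8%) were higher in egg, 4362 (34.2%) higher in sperm and 3836 (30.0%) neither. The order of the first pair depended on the scaling: with DESeq2 size factors, which moved all log2 ratios by a median of -0.27, 4096 shared genes were higher in egg and 4850 in sperm. The middle 50% of the shared genes had log2 ratios from -1.81 to 1.93, while the SD of a gene's ratio over the egg libraries had a median of 0.06, and 1365 shared genes were over 10-fold higher in egg and 1264 over 10-fold higher in sperm. Over 26066 genes the log2 levels of egg and sperm had a Pearson correlation of 0.231 and those of egg and zygote 0.956, given as a description, since genes are not replicates and share their libraries. Only 9 genes were among the 100 with the highest CPM in both gametes.

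The largest annotated shared differences towards egg were 4 ribosomal proteins and a lectin. EULD1b (LOC_Os03g21040), a lectin of a stress-responsive family, was at 1919.8, 2010.0 and 1898 CPM in the egg libraries and 1.63 CPM in sperm, a log2 ratio of 9.45 (SD 0.05 over 3 egg libraries). RPL18 (LOC_Os05g06310) was at 760.1, 797 and 780.3 CPM in egg and 1.01 CPM in sperm (log2 ratio 8.83). RPL3A (LOC_Os12g07010), L18a (LOC_Os01g54870) and L6 (LOC_Os09g31180) had log2 ratios of 8.10, 7.89 and 7.79. All 5 were just above the limit of 1 CPM in sperm. No egg library overlapped with sperm, which follows from their choice by the largest ratio.

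Towards sperm, the largest annotated shared differences included a DNA methyltransferase. MET1b (LOC_Os07g08500), of the family that maintains CG methylation after replication, was at 939.9 CPM in sperm and 7.18, 8.48 and 8.81 CPM in the egg libraries (log2 ratio -7.55, SD 0.16 over 3 egg libraries). A protein with a cytidylyl transferase domain (LOC_Os08g06450) was at 1139 CPM in sperm and 1.48, 1.11 and 1.43 CPM in egg, the largest ratio of this group (log2 -10.35). DRP2C (LOC_Os08g32920), a dynamin-related protein of membrane fission, was at 258 CPM in sperm and 1.84, 2.04 and 2.7 CPM in egg. A membrane protein (LOC_Os08g30020) and a GTP-binding protein (LOC_Os05g48855) had log2 ratios of -8.45 and -5.48. The sperm value was above all 3 egg libraries for each of the 5 genes, which follows from their choice by the largest ratio. MET1b, LOC_Os08g06450 and DRP2C come from a table of zygotic genes raised in cmt3b egg, made on libraries of this series. Their low egg values are therefore not independent evidence.

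The annotated genes with the highest level in the lower of both gametes have general roles in the cell. Ubi1 (LOC_Os06g46770), a ubiquitin gene, was at 1070.1, 1013 and 1111 CPM in the egg libraries and 3155 CPM in sperm, and TubA2 (LOC_Os11g14220), an alpha-tubulin, at 4299, 4545 and 4359 CPM in egg and 578 CPM in sperm. These differed over 2-fold, in opposite directions (log2 ratios -2.28 and 2.21). AldC-2 (LOC_Os05g33380), an aldolase of glycolysis, was higher in sperm (log2 ratio -1.33). The 14-3-3 protein GF14c (LOC_Os08g33370) and the ADP/ATP carrier ANC1 (LOC_Os02g48720) were within 2-fold in at least 1 egg library (log2 ratios 0.31 and 0.78).

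The CHG methyltransferases were shared by both gametes but weighted in opposite directions. CMT3a (LOC_Os10g01570) was at 14.1, 13.1 and 15.3 CPM in the egg libraries and 1.71 CPM in sperm (log2 ratio 2.26). CMT3b (LOC_Os03g12570) went the other way, with 5.9, 5.51 and 5.9 CPM in egg and 28.3 CPM in sperm (log2 ratio -2.99). JMJ706 is a histone H3K9 demethylase, an enzyme that removes a histone mark tied to CHG methylation, and JMJ707 is its close relative. JMJ707 (LOC_Os02g46930) was at 88 CPM in sperm against 2.97, 2.97 and 2.74 CPM in egg (log2 ratio -5.59). JMJ706 (LOC_Os10g42690), at 6.41 CPM in sperm and 4.37, 5.76 and 5.35 CPM in egg, had a log2 ratio of -1.02, which became -1.30 with DESeq2 size factors, and 1 or more egg libraries lay within 2-fold of sperm on the TMM scale.

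Gene lists were cut by keyword from the study's tables, so they hold only part of each family. Translation genes were the most egg-weighted of them. Of 53 ribosomal protein genes 52 could be compared, 46 (88.5%, against 45.9% of all genes) were higher in egg and 2 in sperm, and the median log2 ratio was 4.80, against 0.59 over all genes compared. Their summed level was 28987 to 30033 CPM in the egg libraries, 1542 and 1546 CPM in the sperm files and 43126 to 44137 CPM in zygote. The 2 that were higher in sperm were RPL31 (LOC_Os06g21480) and a chloroplast S14 gene (LOC_Os10g38238). Of 12 translation factors 11 were higher in egg and 1, the initiation factor subunit eIF3b (LOC_Os10g41960), higher in sperm, with a median log2 ratio of 3.58. The initiation factor subunit eIF3e (LOC_Os07g12110) was at 406, 395 and 418 CPM in egg and 2.12 CPM in sperm, and the elongation factor gene EF-1beta' (LOC_Os07g46750) at 562, 562 and 551 CPM and 19.9 CPM.

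Core histones were weighted towards sperm. All 22 histone genes of the list were shared, 17 (77.3%, against 36.6% of all genes) were higher in sperm and 2 in egg, and the median log2 ratio was -2.37. A histone H3 gene (LOC_Os04g34240) was at 172 CPM in sperm and 20.3, 20.7 and 23 CPM in egg, and a core histone gene (LOC_Os10g28230) at 679 CPM in sperm and 38.9, 40.5 and 40.4 CPM in egg. The summed level of the list was 1582 to 1698 CPM in egg, 6430 and 6699 CPM in the sperm files and 18152 to 19774 CPM in zygote. All 22 come from a table of zygotic genes raised in cmt3b egg, made on libraries of this series, so their low egg and high zygote values are not independent evidence. Histone mRNAs exist in near-identical copies, and the part of this in the values was not tested.

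The other lists were more mixed, and over all genes compared 45.9% were higher in egg and 36.6% in sperm. Of 39 genes with a transcription factor family, 27 could be compared, with 17 (63.0%) higher in egg and 9 (33.3%) in sperm. The F-box genes and the aquaporins were split evenly, with 3 of 8 (37.5%) and 2 of 5 (40.0%) compared genes higher in each gamete. Of 10 tubulin, kinesin and microtubule genes 5 (50.0%) were higher in egg and 4 (40.0%) in sperm. The beta-tubulin TUB2 (LOC_Os03g01530) was at 303, 306 and 302 CPM in egg and 0.598 CPM in sperm, whereas a microtubule-associated protein (LOC_Os05g47970) was at 0.156, 0.186 and 0.169 CPM in egg and 25.7 CPM in sperm. Of the 10 genes 8 come from the table of zygotic genes raised in cmt3b egg, LOC_Os05g47970 among them. TUB2 comes from the table of genes raised in cmt3b sperm. The low egg values of the former and the low sperm value of TUB2 are not independent evidence. Of 40 transposon genes 21 could be compared, and 9 (42.9%) were higher in each gamete. Of 17 photosynthesis and Rubisco genes, 16 could be compared, 2 (12.5%) were higher in egg and 9 (56.25%) in sperm. This list was taken whole from a table of genes raised in cmt3b sperm. Its summed level was 166 to 169.8 CPM in egg, 261 and 276 CPM in the sperm files and 74.0 to 80.7 CPM in zygote.

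**Figure D3:**
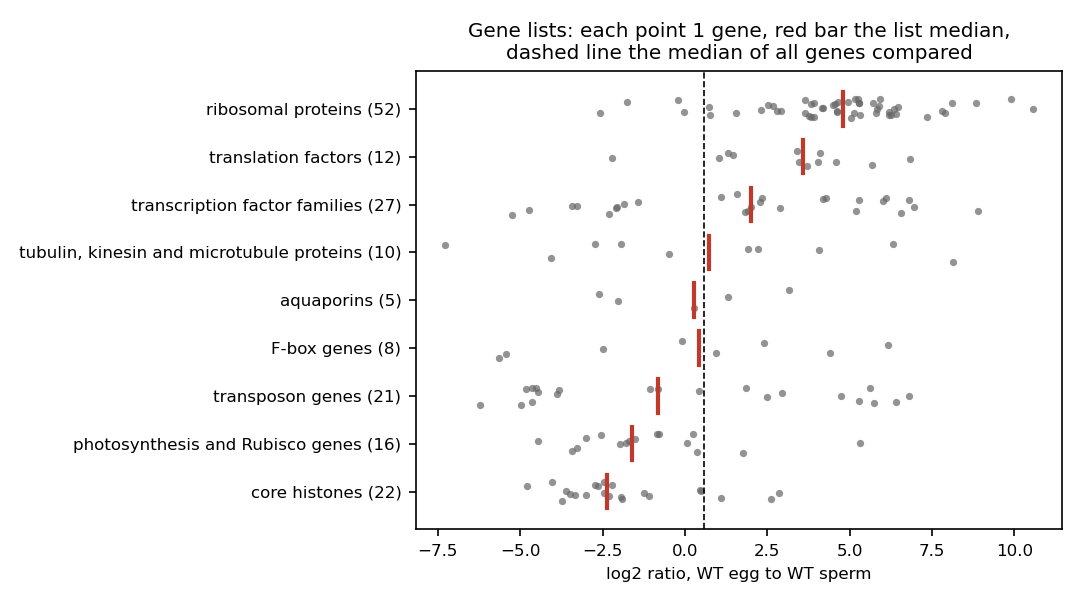
Log2 ratio of WT egg to WT sperm (horizontal axis) for each gene of 9 lists, with the number compared in brackets, the list median as a red bar and the median of all 25587 genes (0.59) as a dashed line. Ribosomal proteins (median 4.80) and translation factors (3.58) lie to the right of the line and core histones (-2.37) to the left.

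Lists of genes with methylation changes in the male lineage leaned towards egg. The first list holds genes at regions that gain CHG methylation in microspore and, by the paper's account, lose the gain in sperm. Of its genes 180 could be compared, and 120 (66.7%) were higher in egg and 42 (23.3%) in sperm. A further 126 were at the floor in both gametes. Of the genes at loci with methylation specific to the male sexual lineage, 121 could be compared, and 78 (64.5%) were higher in egg and 24 (19.8%) in sperm. The backgrounds were 45.9% and 36.6%. These lists hold 35 and 25 of the 53 ribosomal protein genes, and the part of those in the shares was not tested.

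In WT zygote, the egg-only genes were mostly found and the sperm-only genes were mostly at the floor. Of the 4316 egg-only genes, 3957 (91.7%) were found in all 3 zygote libraries and 16 were at the floor. Of the 2681 sperm-only genes, 11 (0.410%) were found and 2283 (85.2%) were at the floor. The share found was 0.844% when the class was set without egg library 1, and 0.442% to 0.567% with any other egg or zygote library left out. Of the shared genes 12386 (97.0%) were found, and over all genes 33.9% were. Median levels in zygote were 9.90 CPM for egg-only genes (11.2 CPM in egg), 0 CPM for sperm-only genes (3.07 CPM in sperm) and 23.4 CPM for shared genes (28.0 CPM in egg and 12.9 CPM in sperm). In bulk pools, fewer cells with a transcript and less of it per cell cannot be told apart. Nor can RNA carried in by the egg be told apart from RNA newly made in the zygote. CPM is a share of each library, and the part of dilution of sperm RNA in the zygote was not tested. For sperm-only genes at low CPM in sperm, the floor in zygote therefore says little.

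Of the 10 annotated egg-only genes with the highest CPM, 9 differed by less than 2-fold between egg and zygote on the TMM scale. The largest drop among these 9 was that of the tRNA-dihydrouridine synthase LOC_Os04g20990, at 21, 21.3 and 21.3 CPM in zygote (log2 -0.93 on the TMM scale). SUS1 was at 578, 574 and 585 CPM in the zygote libraries, nucleolar protein 5A at 377, 386 and 395 CPM and RPS23 at 257, 263 and 263 CPM. The other, BBTI8, fell to 2.79, 1.72 and 2.28 CPM, a change from egg of -4.83 (SE 0.08, adjusted p = 1.7e-32) on the log2 scale by edgeR's quasi-likelihood test. EIL6 (LOC_Os04g38400), a transcription factor of ethylene signalling, fell in the same way from 13.3, 13.5 and 11.5 CPM in egg to 0.909, 0.862 and 1.25 CPM in zygote. In contrast, a pair of egg-only kinesin motor genes rose: LOC_Os04g53760 went from 7.77, 8.54 and 8.14 CPM in egg to 63.1, 54.7 and 61.7 CPM in zygote, a log2 change of 3.09 (SE 0.06, adjusted p = 1.8e-30) by edgeR, and SIP27 (LOC_Os02g28850) from 3.48, 3.03 and 2.99 to 34.6, 31.7 and 33.5 CPM. Both kinesin genes come from the table of zygotic genes named above for the histones.

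The sperm-only genes with the highest levels in sperm gave little or no signal in zygote. The H+ pyrophosphatase was at 0, 0 and 0.0893 CPM in the zygote libraries. The monooxygenase LOC_Os07g30960, with 0 counts in egg, had 3, 2 and 7 counts in the zygote libraries, and CYP93G1 (LOC_Os04g01140) had 3, 3 and 1 counts in egg and 2, 4 and 7 in zygote, so both were above the floor in at least 1 zygote library. The slowmo homolog had no more than 3 counts in any of them. The nodulin, PAP3a, pollen allergen, PE-PGRS, Fbox214 and 12bglu38 genes had 0 counts in all 3. Of the 89 sperm-only genes with at least 100 CPM in sperm, 0 were found in zygote and 62 were at the floor. Of the 902 with under 2 CPM, 4 were found and 806 were at the floor. The share at the floor was thus lower at high sperm levels (69.7%) than at low ones (89.4%). None of the 11 sperm-only genes found in zygote was annotated. They ranged from 1.11 to 47.5 CPM in sperm and from 1.19 to 12.4 CPM in zygote, 6 of them were higher in zygote than in sperm on this scale, and 9 were also found in WT meiocyte or microspore.

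Sperm-only genes had more counts in zygote than in an egg library that had not shaped the class, and so had the genes at the floor in both gametes. The class was redefined from 2 egg libraries, and the left-out library was read beside the zygote libraries. With egg library 1 left out, 162 of 2843 sperm-only genes (5.70%) had over 3 counts in it, against 294 to 414 in the zygote libraries. With library 2 left out the numbers were 35 of 2716 (1.29%) and 231 to 339, and with library 3 left out 142 of 2823 (5.03%) and 262 to 390. The sperm-only genes took 0.00577% to 0.00755% of the counts in the left-out egg libraries and 0.0194% to 0.0267% in zygote, and the groups did not overlap in any of the 3 rounds. The genes at the floor in both gametes, defined in the same way, took 0.0167% to 0.0176% of the counts in the left-out egg libraries and 0.0395% to 0.0465% in zygote, and 0.360% to 0.999% of them had over 3 counts in the left-out egg libraries against 1.42% to 2.32% in zygote, so a higher signal in zygote was not seen in the sperm-only class alone. In the left-out egg libraries 0 of the sperm-only genes reached 1 CPM, which was true of 21 to 40 genes in the single zygote libraries. No test was made of this difference, and whether the signal came with the sperm or was made in the zygote cannot be told apart in these data.

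**Figure D4:**
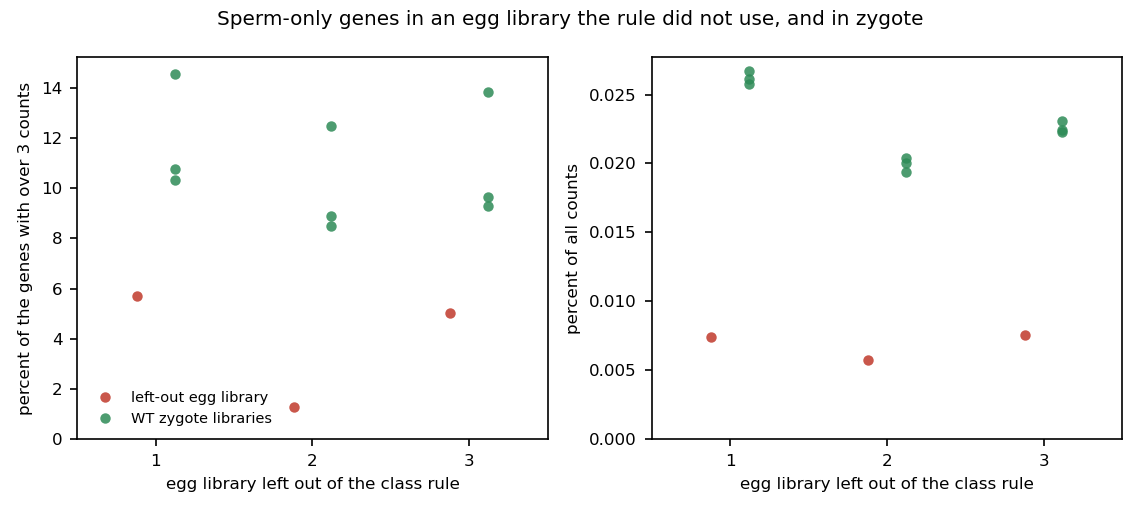
Sperm-only genes, defined with 1 egg library left out (horizontal axis), in that egg library (red) and in the 3 WT zygote libraries (green), as the percent of these genes with over 3 counts (left) and as the percent of all counts of a library (right). The zygote libraries lie above the left-out egg library in each round, at 8.51% to 14.6% against 1.29% to 5.70% of the genes and 0.0194% to 0.0267% against 0.00577% to 0.00755% of the counts.

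Between egg and zygote, 21265 genes were tested with edgeR's quasi-likelihood test and called where the adjusted p fell under 0.01 and the groups differed over 2-fold. Of these 13.1% were higher in zygote and 9.64% lower. Of the egg-only genes 411 (9.52%) were higher and 554 (12.8%) lower, with a median log2 fold change of -0.07, against -0.01 over all genes. Of the shared genes 1178 (9.23%) were higher and 1025 (8.03%) lower. The egg libraries set both the class and the fold change, so these counts are a description. Of the sperm-only genes 35 passed the filter on low counts, which they could do only through zygote, and no count is drawn from them. The libraries of a group were nearly identical (biological coefficient of variation 2.39%), so small changes passed the p-value limit.

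Shared genes that leaned towards sperm had a larger share of genes raised in zygote than those that leaned towards egg. Of the 4362 shared genes higher in sperm, 568 (13.0%) were higher in zygote than in egg and 347 (7.96%) lower. Of the 4568 higher in egg, 270 (5.91%) were higher in zygote and 379 (8.30%) lower. Over all shared genes the shares were 9.23% and 8.03%, and over all genes tested 13.1% and 9.64%. The sperm-weighted share raised in zygote was thus near that of all genes tested, and the egg-weighted share lay below it. With the egg to sperm direction set by 2 egg libraries and the zygote read against the third, 11.8% to 12.2% of the sperm-weighted and 5.54% to 5.97% of the egg-weighted shared genes were over 2-fold higher in zygote, and 5.98% to 6.46% and 7.91% to 8.45% over 2-fold lower. The difference between these shares was not tested. MET1b rose from 7.18, 8.48 and 8.81 CPM in egg to 85.6, 89.9 and 89.9 CPM in zygote, a log2 change of 3.65 (SE 0.06, adjusted p = 8.2e-34) by edgeR, and stood below its sperm level. CMT3a rose to 142 CPM or more in each zygote library, above both gametes, a log2 change of 3.55 (SE 0.05, adjusted p = 1.6e-36) by edgeR. Both methyltransferases are in the table of zygotic genes. CMT3b was at 10.3, 8.47 and 9.56 CPM in zygote, which is 0.90 (SE 0.10, adjusted p = 1.2e-09) from egg on the log2 scale by edgeR, and JMJ707 at 3.51, 3.23 and 4.15 CPM, and neither passed the 2-fold limit. The membrane protein LOC_Os08g30020 fell to 1.56, 0.934 and 0.982 CPM, a log2 change of -1.48 (SE 0.20, adjusted p = 3.5e-08) by edgeR, and EULD1b to 732, 749 and 761 CPM.

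Of the ribosomal protein genes 12 of 52 were higher in zygote than in egg at the same limits, against 13.1% higher and 9.64% lower among all genes tested, with a median log2 fold change of 0.62. RPL18 went from 760.1, 797 and 780.3 CPM in egg to 1606, 1619.6 and 1579 CPM in zygote. Of the 52 genes, 40 did not pass both limits. For the photosynthesis genes 1 of 15 tested was higher and 9 were lower, against the same background. Of the 25 transcription factor genes tested 10 were higher and 4 lower, but all 10 come from the table of zygotic genes named above and are not independent evidence.

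Of the 26854 genes at the floor in both gametes, 32 (0.119%) were found in zygote, at 1.09 to 5.76 CPM, against 33.9% of all genes. The 3 with an annotation, named here after their values were seen, were SWEET6b (LOC_Os01g42090), a sugar transporter, at 1.62, 1.36 and 1.83 CPM, a PTR peptide transporter (LOC_Os01g65169) at 1.23, 1.51 and 1.34 CPM, and the glutathione S-transferase GST14 (LOC_Os03g04220) at 2.73, 2.3 and 1.65 CPM in the zygote libraries. GST14 comes from the table of zygotic genes named above, so its low egg and higher zygote values are not independent evidence. The PTR gene comes from the table of genes raised in cmt3b sperm, which holds for its low sperm value alike.

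Libraries that the class rule did not use gave a more mixed picture for sperm than for egg. In cmt3b egg 3935 egg-only genes (91.2%) and 98 sperm-only genes (3.66%) were found, against 34.4% of all genes. In cmt3a egg the numbers were 3681 (85.3%) and 112 (4.18%), against 33.6% of all genes. In cmt3b sperm 1191 sperm-only genes (44.4%) were found, but so were 1382 egg-only genes (32.0%), against 29.9% of all genes. The egg-only genes took 1.41% to 1.45% of the counts of the cmt3b sperm libraries, against 0.00894% and 0.00989% in the WT sperm files. The share of sperm-only genes found in cmt3b sperm grew with their level in WT sperm: 98.9% of those with at least 100 CPM in WT sperm were found in cmt3b sperm, and 22.7% of those under 2 CPM. The H+ pyrophosphatase had a mean of 103 CPM in cmt3b sperm, and the pollen allergen 51.4 CPM, while PAP3a was at 0.916 CPM. The 10 annotated egg-only genes with the highest CPM were mixed in cmt3b sperm. SUS1 and nucleolar protein 5A had means of 0.936 and 1.29 CPM, above their WT sperm values of 0.0815 and 0.163 CPM. The tRNA-dihydrouridine synthase was at 17.7 CPM, RPS23 at 7.30, L24 at 5.69 and the RNA recognition motif gene at 5.01 CPM. ABCB14, the glucan endo-1,3-beta-glucosidase, Roc3 and BBTI8 were at 0.774, 0.0984, 0.0205 and 0 CPM. The cmt3b sperm libraries also carried BURP15 at 210 to 313 CPM, against 0.0544 CPM in WT sperm, and the photosynthesis list at a summed 7959 to 8399 CPM, and the part of these in the egg-only signal was not tested.

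**Figure D5:**
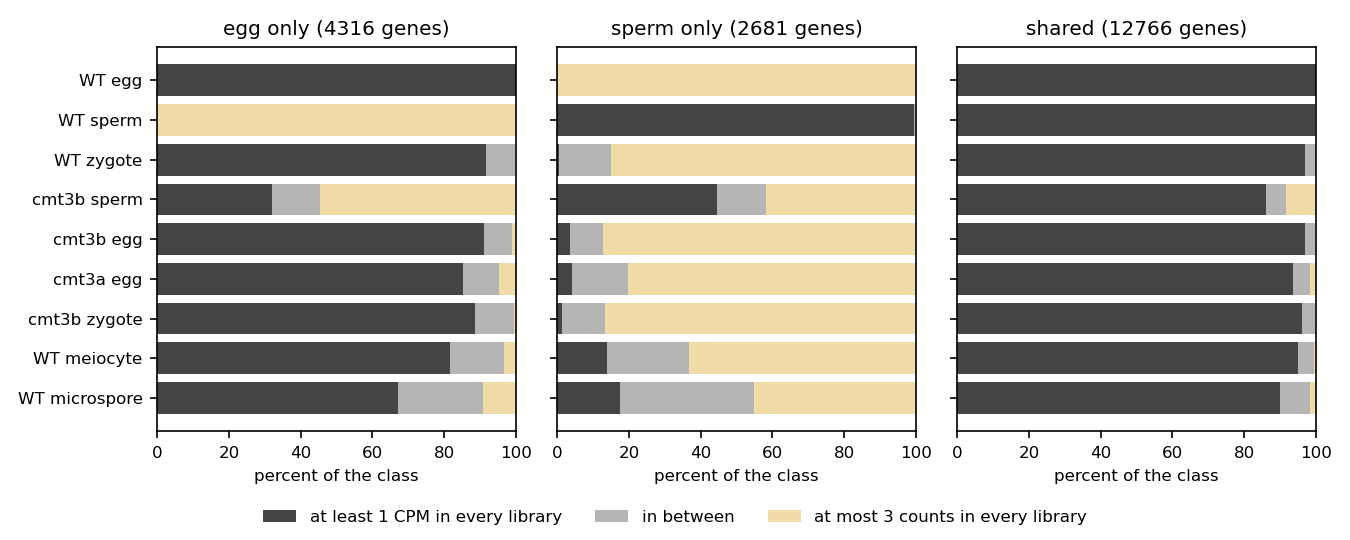
Share of the egg-only, sperm-only and shared genes (percent of each class, horizontal axis) that were at 1 CPM or more in every library of a group (dark), at 3 counts or fewer in every library (light yellow) or in between (grey), for 9 groups of libraries. WT egg and WT sperm defined the classes. WT zygote resembles the egg groups, with 91.7% of egg-only and 0.410% of sperm-only genes found, while cmt3b sperm holds 32.0% of the egg-only genes.

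Most egg-only genes were also found in the male cells that precede sperm. In WT meiocyte 3517 of them (81.5%) were found and in WT microspore 2897 (67.1%), against 36.6% and 33.9% of all genes, and 78 (1.81%) were at the floor in both. SUS1 had a mean of 115 CPM in meiocyte and 207 CPM in microspore, and Roc3 21.4 and 1.99 CPM. Of the sperm-only genes 374 (14.0%) were found in meiocyte and 471 (17.6%) in microspore. At the floor in WT meiocyte, microspore, egg and zygote alike were 837 sperm-only genes (31.2%), with egg set by the class rule. Over all genes, 51.8% were at the floor in meiocyte, 42.9% in microspore and 57.4% in zygote. Of the shared genes 9620 (75.4%) were found in all 9 groups examined, which include the WT egg and WT sperm that set the class. Over all genes, 29.9% to 36.6% were found in single groups. Joint shares over all genes were not taken.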

How the data were processed

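RNA-seq was made from pooled egg cells, sperm and zygotes of ZH11. The authors trimmed reads with fastp 0.20.1, used HISAT2 for alignment to the rice assembly MSU7.0, and obtained gene counts with featureCounts; the deposited counts are whole numbers that are not normalized, and the deposited FPKM values are counts scaled by gene length and library total. A deposited TPM column was not used. The labels and the paper name different amplification kits, and use of strand and of multiply mapped reads in counting was not given in the sources used here.

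CPM was computed per total count of a file (13924063 to 25610860 counts). The 2 sperm files were averaged into 1 sample, so egg against sperm was given as a log2 ratio (TMM scaling, prior count 2), and zygote against egg was tested with the quasi-likelihood test of edgeR 4.0.16 in R 4.3.3, on genes that passed its low-count filter, with Benjamini-Hochberg adjustment (adjusted p under 0.01, fold over 2). Scripts were tested on simulated data. Intervals and floors cover counting error only.

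Named genes were, among genes annotated in the paper or its tables, the 10 with the highest CPM in each single-gamete class, the 5 shared genes with the largest ratio each way (10 CPM or more in the higher gamete), the 5 with the highest level in the lower gamete, CMT3a, CMT3b, JMJ706, JMJ707 and examples of each list by largest ratio, plus 2 genes without annotation per single-gamete class. The members and lists were chosen with earlier results of these data known. Alternatives were DESeq2 1.42.0 as test and scaling, other limits for found and floor, thinning to the smallest library, other prior counts and filters, a replicate block and leaving out each library. No identifier matched the reference table at hand, so positions and sequences are not given.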

Additional observations from a re-analysis of the deposited data

How the results depend on the processing

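The limits decided the size of the classes, most of all for sperm-only genes. With 5 CPM as the limit for found there were 2906 egg-only, 952 sperm-only and 7768 shared genes, and with a floor of 0 counts 3196 egg-only and 1638 sperm-only genes. Of the egg-only genes 88.5% were found in zygote at 5 CPM and 89.3% at 1 FPKM. Of the sperm-only genes 0% were found at 5 CPM and 0.730% at 1 FPKM, and of the shared genes 95.5% and 96.6%. Leaving out 1 library at a time gave 4316 to 4400 egg-only, 2706 to 2843 sperm-only and 12786 to 12852 shared genes, of which 91.0% to 92.4%, 0.442% to 0.844% and 96.7% to 97.4% were found in zygote. It gave 11612 to 12088 genes higher in egg and 9206 to 9446 higher in sperm, 2734 to 3036 genes higher in zygote than in egg and 1997 to 2159 lower.

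The equal replicate numbers of egg and zygote libraries did not pair them, with correlations of deviations from -0.03 to 0.03, and a replicate block gave 2787 genes higher in zygote and 2044 lower. With the sperm files taken as 2 samples and a replicate block, 10947 genes were called higher in egg and 9572 higher in sperm, a test of near copies and not of separate samples. DESeq2 on the same files gave 11141 and 11771. Without a filter on low counts, 12383 and 12359 of 35778 genes were higher in egg and in sperm. The gamete with more genes thus changed under DESeq2, as it did among shared genes with its size factors (4096 higher in egg, 4850 in sperm), while no called ratio or change of a named gene turned its direction. The zygote call of 3 named genes changed: 2 photosynthesis genes missed a limit under DESeq2 (LOC_Os09g04680 and LOC_Os10g38229, the latter also without egg library 3 and without zygote library 3, where its log2 change was -0.83), and PIP2;4 (LOC_Os07g26630), at -0.92, passed at -1.30 without zygote library 3. Depth limits calls of a single gamete, since 3 counts stand for up to 0.215 CPM in the zygote libraries.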
